A study of Saccharomyces cerevisiae with 119 samples.

Results

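Ribosomes are built in the nucleolus from precursor rRNA, ribosomal proteins and a large cast of assembly factors that bind the growing particle in order and leave again before it reaches the cytoplasm. The factors of the large (60S) subunit include RNA helicases, rRNA methyltransferases, scaffold proteins, GTPases and export factors. In *Saccharomyces cerevisiae* their genes belong to the ribosome biogenesis regulon, which is known to be switched down when growth is slowed by stress. The 50 large subunit assembly factor genes described here were chosen by systematic name for their role in the 60S pathway, with no use of measured values. All 50 were found among the 6685 genes of the table, and all passed the filter on low values, together with 6090 genes in the strain experiment and 5748 genes in the mutant experiment.

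The data were 119 poly(A) RNA-seq libraries, 71 from a strain experiment and 48 from a mutant experiment, with 7726938 to 18253411 counts each. The strain experiment compared 8 homozygous diploid strains: DBY8268, a derivative of the lab strain S288c that carries the *URA3* allele of M22 and is called S288c below, the vineyard strains M1 and M22, Y10 from coconut, YJM1129 from a distillery, the clinical strain YJM308, and the oak strains YPS163 and YPS606. The mutant experiment compared wild-type YPS606 with YPS606 strains deleted for *MSN2* and *MSN4* together (msn2/4), for *SKN7* (skn7) or for *YAP1* (yap1), which encode stress-responsive transcription factors. Cells grew in rich medium (YPD) at 30 °C. Each culture gave 3 samples: unstressed cells, cells after 30 min in 5% ethanol, and cells after 45 min in 0.4 M NaCl. Each strain group had 3 libraries, except Y10 in ethanol with 2, and each mutant group had 4. Each genotype was thus represented by a single line. In each mutant the deleted genes were at 0 to 0.507 CPM (CPM is the usual depth-normalized count, here relative to the scaled library total), against at least 7.0 CPM in every other library. The titles of the Y10 salt libraries disagreed with their treatment labels, which were used here. Leaving out Y10 salt replicate 1 changed none of the counts of called genes below by more than 1.5 times.

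In unstressed cells the 50 genes together supplied 0.825% to 1.79% of all counts, with a median of 1.2% over 24 libraries. After ethanol they supplied 0.0296% to 0.4% (median 0.0568%, n = 23), and after salt 0.249% to 0.846% (median 0.526%, n = 24). The ethanol libraries all lay below the unstressed ones, and the salt libraries reached up to the lowest unstressed values. S288c held the top of the ethanol range with 0.342% ± 0.0505 (SD, n = 3), and M22 was low with 0.0411% ± 0.00558 (SD, n = 3). In salt the highest group was M1 with 0.728% ± 0.0254 (SD, n = 3). These are shares of the sequenced mRNA. Total mRNA per cell was not measured, so fewer copies of these mRNAs and more of the others cannot be told apart.

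Averaged over the 8 strains, ethanol lowered each of the 50 mRNAs, and by far more than it lowered most other genes. A gene was called when its edgeR quasi-likelihood test, with a block for replicate number, gave a false discovery rate (FDR, Benjamini-Hochberg) under 0.01 and a change of at least 1.5-fold. By that rule 50 of 50 genes were lower in ethanol, where 28.4% of all genes tested were called lower. The median log2 fold change of the 50 was -4.23, against 0.0535 for all genes tested. The response was deep in every role: the median was -4.12 for the 9 helicases, -5.25 for the 3 methyltransferases, -4.21 for the 6 early scaffold and NOC proteins, -4.12 for the 6 factors of the NOP7 complex and the internal transcribed spacer 2 (ITS2), -4.01 for the 13 factors of the SSF1 and MAK16 modules and their neighbours, -5.26 for the 2 factors that load 5S rRNA, -4.48 for the 4 GTPases and AAA ATPases, and -4.59 for the 7 late, placeholder and export factors.

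The deepest change was that of *MAK16* (YAL025C), a scaffold protein of early 60S particles. It had 146 to 313 CPM in unstressed libraries (median 221, n = 24). In ethanol it had 27.3, 23.8 and 40.3 CPM in the 3 S288c libraries and 0.582 to 7.22 CPM (median 2.68, n = 20) in the other 7 strains. No ethanol library of any strain came near the unstressed range. The mean log2 fold change was -5.84 (SE 0.13, FDR 2.4e-42), or 57.4-fold. *SPB1*, an rRNA methyltransferase, fell by 5.83 on the log2 scale. *RPF2* and *RRS1*, partners that bring 5S rRNA into the particle, had log2 fold changes of -5.55 and -4.97. The GTPase gene *NOG1* was at 425 to 712 CPM unstressed (median 536, n = 24), and in ethanol at 78.9, 56.8 and 85.0 CPM in S288c and 3.72 to 16.7 CPM (median 8.72, n = 20) elsewhere, a log2 fold change of -5.54. The same pattern of a low level everywhere and a higher one in S288c held for *ARX1*, whose product escorts the subunit through the nuclear pore (log2 fold change -5.43). Of the trimer that prepares ITS2 processing, *NOP7* changed by -3.21, *ERB1* by -4.04 and *YTM1* by -4.01 on the log2 scale. *NOP13* (YNL175C), an RNA-recognition-motif protein, changed by -5.13. *SSF1* (YHR066W) and *SSF2* (YDR312W), near-identical paralogs among which 50-base reads can be shared, changed by -5.53 and -4.01, and how reads were divided between them is uncertain. *NOG2* contains the snoRNA gene *SNR191* in its intron, so reads of the snoRNA could have been counted with it.

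*TIF6* (YPR016C), the anti-association factor that keeps the new 60S subunit from joining the 40S subunit too early, changed least. It had 211 to 760 CPM unstressed (median 332, n = 24) and 53.2 to 261 CPM in ethanol (median 112, n = 23). These ranges, pooled over strains with unlike unstressed levels, overlapped. In wild-type YPS606 of the mutant experiment they did not, with 556 to 678 CPM unstressed and 206 to 229 CPM in ethanol. The mean log2 fold change of *TIF6* over the 8 strains, -1.74 (SE 0.071, FDR 3.1e-29), was called. The helicase gene *SPB4* (-2.45) and the GTPase gene *NUG1* (-2.48) came next. Per kilobase of coding sequence *TIF6* was also the most abundant of the 50 mRNAs in unstressed cells, with 523 ± 203 CPM per kb (mean and SD of 8 strain means), followed by *MRT4*, the placeholder for the stalk protein P0, with 467 CPM per kb. *SSF2* was lowest at 50.7 CPM per kb. The strain means of *TIF6* ran from 351 to 895 CPM per kb, overlapping those of *MRT4*.

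The salt response was shallower. At 45 min, 49 of 50 genes were lower (20.9% of all genes tested were called lower), with a median log2 fold change of -1.46 against -0.0567 for all genes tested. *LOC1*, an rRNA-binding factor, fell from 81.5 to 191 CPM (median 132, n = 24) to 15.9 to 56.1 CPM (median 31.9, n = 24), with no overlap between conditions. Its log2 fold change of -2.08 (SE 0.092, FDR 2.6e-27) was the deepest. *MAK16* (-2.06), *NOP15* (-1.95), *RRP15* (-1.89) and the methyltransferase gene *RRP8* (-1.82) followed. By role the salt medians ran from -0.986 for the GTPases and AAA ATPases to -1.69 for *RPF2* (-1.57) and *RRS1* (-1.81). *NOP7* changed by -1.65, *ERB1* by -1.03, *YTM1* by -1.26, *SSF1* by -1.76, *SSF2* by -1.16, *NOP13* by -1.79, *NOG1* by -0.96 and *ARX1* by -1.19. *TIF6* was the only gene of the 50 not called. It stood at 194 to 662 CPM (median 391, n = 24) in salt, overlapping its unstressed range. Its log2 fold change was 0.03 (SE 0.067, FDR 0.74).

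Within each role the members had unlike depths. Among the helicases, enzymes that unwind or remodel pre-rRNA, the ethanol log2 fold changes ran from -2.45 for *SPB4* and -2.81 for *DBP6* through *HAS1* (-3.67), *MAK5* (-4.06), *DBP9* (-4.12), *DBP10* (-4.53) and *DBP7* (-4.57) to *DRS1* (-5.07) and *DBP3* (-5.18). *HAS1*, shallow in ethanol, was the deepest helicase in salt (-1.64). Of the methyltransferases *NOP2* changed by -3.88 and *RRP8* by -5.25 in ethanol, and by -1.17 and -1.82 in salt. *MAK21* (-5.17), *NOC2* (-4.25) and *NOC3* (-4.16) encode the NOC proteins, which pair in succession as the particle moves out of the nucleolus, and in salt all lay between -1.19 and -1.26. Of the factors that sit on ITS2, *RLP7* (-4.40), *NOP15* (-4.56) and *CIC1* (-4.20) went down together in ethanol, and in salt by -1.65, -1.95 and -1.62. The MAK16 partners *RPF1* (-3.98), *RRP1* (-3.34) and *NSA1* (-3.07) were all shallower than *MAK16* in ethanol, and *RIX7* (-3.69), the ATPase that strips Nsa1 from the particle, was nearer to them. The placeholder genes *RLP24* and *MRT4*, whose products occupy the sites of ribosomal proteins until late, changed by -4.59 and -3.58 in ethanol and by -1.70 and -1.76 in salt. *NIP7* (-5.17) and *NSA2* (-4.93) were deep in ethanol and near the median in salt (-1.40 and -1.47).

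On the mean of the 8 strains, ethanol cells held less of each of the 50 mRNAs than salt cells did. The direct comparison called 50 of 50 lower in ethanol (23.3% of all genes tested), with a median log2 difference of -2.87. The gap was widest for *NOG1* (-4.57), *SPB1* (-4.36), *ARX1* (-4.24), *RPF2* (-3.98) and the helicase gene *DBP3* (-3.94), and narrowest for *NOP53* (-1.18), which recruits the exosome helicase to ITS2, *NUG1* (-1.48) and *NOP7* (-1.56). Concentrations and times differ between the stresses, so this is a comparison of these 2 treatments and not of ethanol and salt in general.

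**Figure D1:**
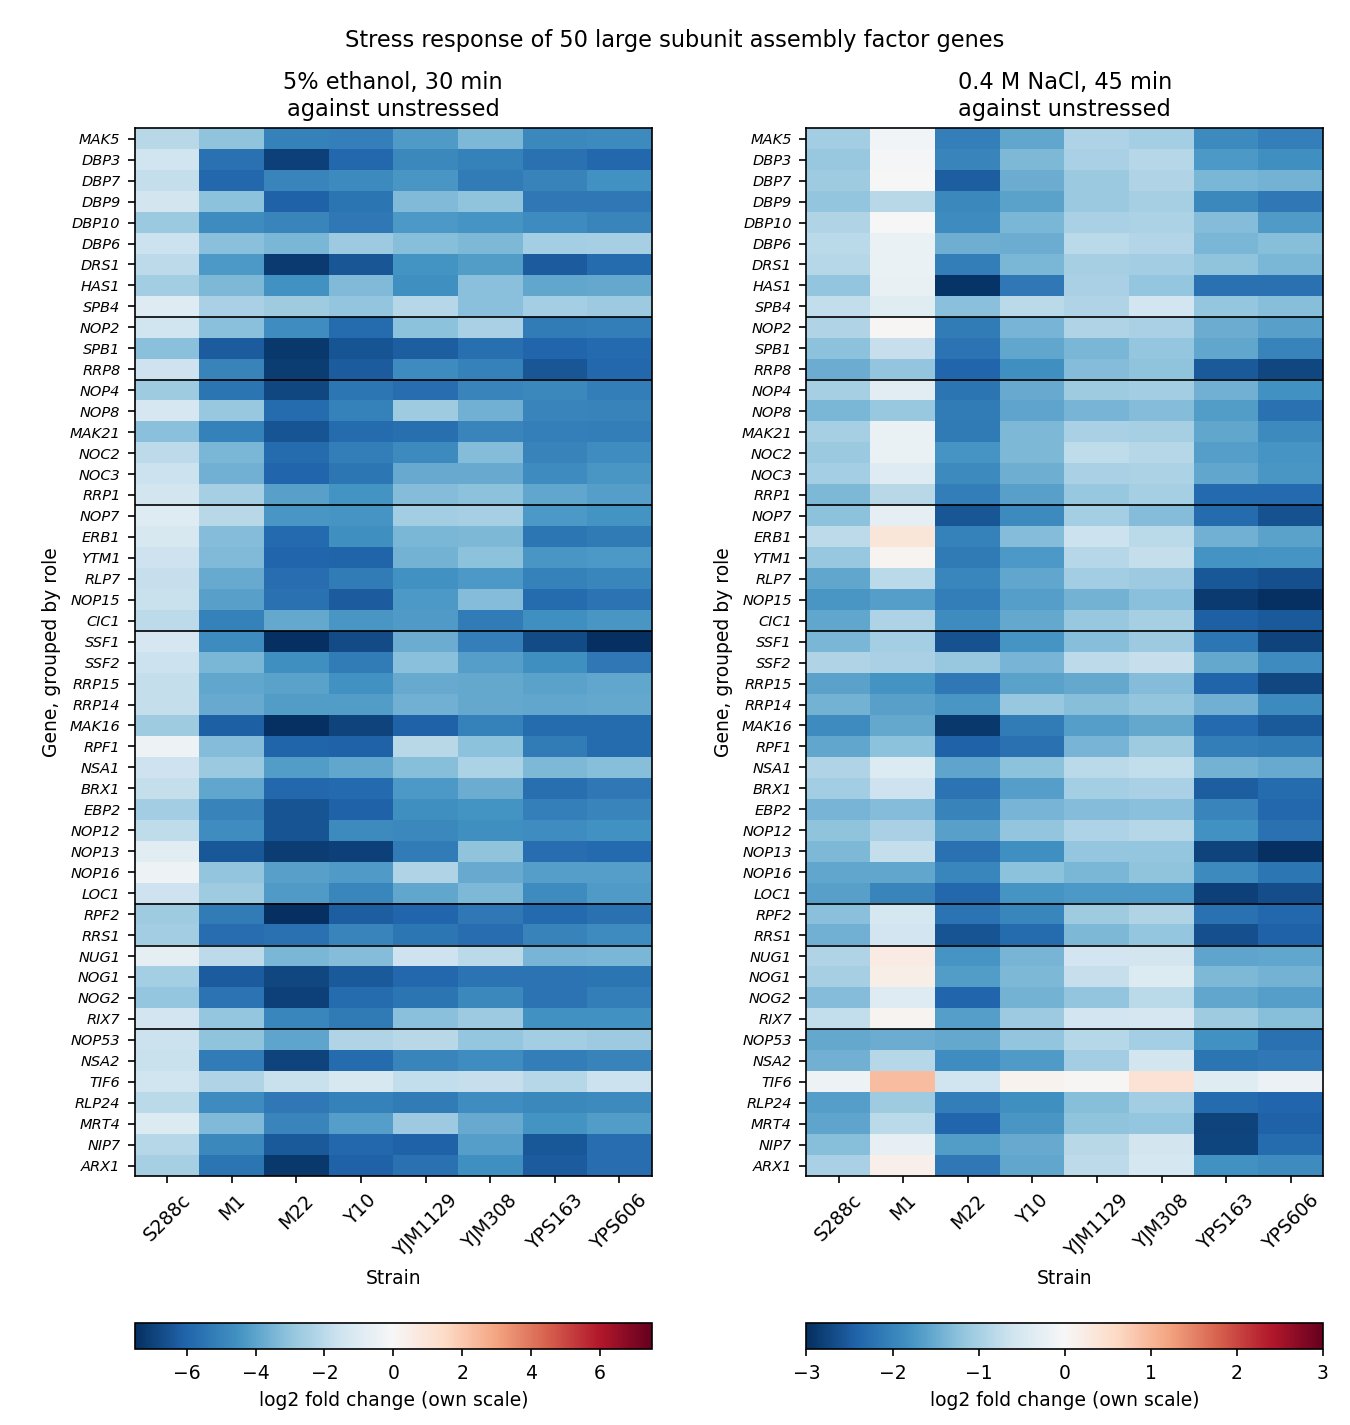
log2 fold change against unstressed cells for each of the 50 genes (rows, grouped by role) in each of 8 strains (columns), in ethanol and in salt, with a separate colour scale for each panel. The S288c column is pale in ethanol (median -1.68) and the M1 column in salt (median -0.552). *TIF6* had the smallest mean change of the 50 genes in each stress (-1.74 and 0.03), though in M1 in salt it rose (0.917).

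Promoters of the ribosome biogenesis regulon are known for 2 elements: the PAC element, bound by the repressors Dot6 and Tod6, and the rRNA processing element (RRPE), bound by Stb3. In the 300 bases before each start codon, searched on both strands in the S288c genome (build R64), the PAC core GATGAG was found in 47 of 50 genes (94.0%, against 19.1% of 6007 genes) and its longer form GCGATGAG in 32 (64%, against 4.05%). The RRPE core AAAATTTT, which reads the same on both strands, was found in 41 (82.0%, against 9.42%). Each of the 50 promoters held at least 1 of the 2 cores, as did 24.1% of all promoters, and 38 held both (76.0%, against 4.44%). The stress element core AGGGG, bound by Msn2 and Msn4, was in 4, those of *DBP3*, *NOP2*, *NOG2* and *MRT4* (8.0%, against 22.2%). PAC cores lay at a median of 120 bases before the start codon, RRPE cores at 141, and the median spacing between them was 18 bases. The stretches below, each with 12 flanking bases, show the arrangements in genes that the results turn on, 5′ to 3′ on the coding strand, with PAC and RRPE cores in capitals (CTCATC is PAC on the other strand).
MAK16, chrI:101252-101291, minus strand: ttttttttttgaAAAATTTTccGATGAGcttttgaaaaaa
NOP13, chrXIV:308694-308723, minus strand: agaaaaaattgcGATGAGcatagatgataa
SSF1, chrVIII:229221-229255, plus strand: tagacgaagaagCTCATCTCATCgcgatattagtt
NOP7, chrVII:695264-695332, plus strand: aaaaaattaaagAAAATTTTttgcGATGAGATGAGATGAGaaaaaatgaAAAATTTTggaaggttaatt
DBP3, chrVII:361985-362026, minus strand: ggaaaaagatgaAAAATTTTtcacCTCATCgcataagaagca
SPB1, chrIII:31304-31335, plus strand: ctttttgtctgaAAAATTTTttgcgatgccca
NOP53, chrXVI:277657-277688, minus strand: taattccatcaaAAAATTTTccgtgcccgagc
*MAK16* and *DBP3* carry RRPE just before PAC, *NOP13* and *SSF1* carry PAC alone in these stretches, *NOP7* carries overlapping PAC cores between RRPE cores, and *SPB1* and *NOP53* carry RRPE without a PAC core. The median ethanol log2 fold change was -4.25 for the 47 genes with a PAC core and -3.07 for the 3 without, of which *SPB1* was among the deepest of all. For the longer PAC form the ethanol medians were -4.3 with it and -4.21 without. For the RRPE core they were -4.2 with it and -4.56 without, the other way round. In salt the medians with and without a PAC core were -1.47 and -1.46. A match is a description of the S288c sequence, and promoters of the wild strains may differ.

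The lab strain kept far more of these mRNAs in ethanol than the wild strains did. The median ethanol response was -1.68 (3.2-fold) in S288c, -3.81 in YJM308, -3.84 in M1, -4.27 in YJM1129, -4.91 in YPS606, -4.96 in YPS163, -5.29 in Y10 and -5.72 (52.9-fold) in M22. All 50 fitted changes were negative in each strain. In S288c itself 48 of 50 genes were called lower (24.1% of all genes tested), with the deepest changes in *MAK21* (-3.13), *SPB1* (-3.12), *NOG2* (-2.92), *DBP10* (-2.78) and *NOP4* (-2.69), and no call for *NOP16* (-0.35) and *RPF1* (-0.41). Against the mean response of the 8 strains, 49 of 50 genes were higher in S288c (18.7% of all genes tested), with a median log2 difference of 2.50 (0.0568 over all genes tested). Leaving out any replicate number left this count at 49.

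*NOP13* differed most. Its ethanol level was 123, 113 and 133 CPM in S288c and 0.931 to 29.0 CPM (median 2.47, n = 20) in the other 7 strains, while its unstressed level was 201, 208 and 240 CPM in S288c and 138 to 263 CPM (median 184) over all 24 libraries. S288c was thus inside the common range before stress and far above it after. The log2 difference from the mean response was 4.31 (SE 0.22, FDR 1e-22), or 19.9-fold. *SSF1* was at 55.0, 54.1 and 61.5 CPM in S288c in ethanol and 0.228 to 23.4 CPM (median 2.10, n = 20) in the others, from an unstressed range of 90.4 to 268 CPM (median 141, n = 24), with a log2 difference of 4.25 (SE 0.22, FDR 1.8e-22). Its paralog *SSF2* was at 20.7, 17.0 and 22.1 CPM in S288c against 1.27 to 9.56 CPM (median 3.40, n = 20), a log2 difference of 2.41. Again the S288c libraries stood above all the others. *RPF1*, which enters with *MAK16*, was at 74.7, 76.9 and 83.2 CPM in ethanol, not far below its 103, 106 and 100 CPM before stress, and in the same strain stood at 34.8, 30.4 and 40.0 CPM in salt. For this gene, in S288c, salt gave the lower level.

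*RRP8* (3.69) and *DBP3* (3.67) also lay far above the mean response in S288c. *NOP7* was at 238, 242 and 327 CPM there, against 16.1 to 127 CPM (median 33.5, n = 20), a log2 difference of 2.27. The other genes of fixed interest lay between 2.34 and 2.98: *ERB1* 2.86, *YTM1* 2.44, *RPF2* 2.91, *RRS1* 2.34, *NOG1* 2.98 and *ARX1* 2.94. At the low end were *HAS1* (1.04), *NOP53* (1.02) and *TIF6* (0.26, FDR 0.22), whose 105, 83.1 and 89.1 CPM lay inside the range of the other strains. Role medians ran from 1.98 to 2.71. Each S288c ethanol library was above every ethanol library of the other 7 strains for 49 of 50 genes, a separation that 12.4% of all genes tested had. The same ethanol cells of S288c were closer to their own salt cells than the strain mean was: 24 genes were lower in ethanol than in salt (22.6% of all genes tested) and 2 higher (25.6%), with a median log2 difference of -0.59.

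The wild strains differed from the 8-strain mean too, by less and with fewer genes. Because S288c enters that mean, the wild strains are set against a value that it raises. M22 was the deepest: 38 of 50 genes were lower than the mean response (7.0% of all genes tested), with a median log2 difference of -1.29. *MAK16* was at 0.738, 0.582 and 1.32 CPM in M22 in ethanol (log2 difference -2.46, SE 0.36, FDR 4.6e-07), at the bottom of the range of all strains. *RPF2* (-2.11), *DRS1* (-2.10), *NSA2* (-2.0) and *RPF1* (-2.0) followed. In Y10, with 2 ethanol libraries, 24 genes were lower (10.7%), led by *RPF1* (-2.06), *YTM1* (-1.99) and *NOP2* (-1.90), and 14 without replicate 1 or without replicate 2. In YPS163 19 were lower (8.18%), with *NOP2* and *ERB1* both at -1.39, and 7 without replicate 2 or with library totals in place of TMM scaling. In YPS606 15 were lower (5.76%), with *SSF1* at -2.92 (SE 0.40, FDR 1.3e-07), *RPF1* -1.81, *SSF2* -1.33, *NOP2* -1.30 and *NOP7* -1.27. *SSF1* had 0.253, 0.228 and 0.637 CPM in YPS606 in ethanol, below every other strain's mean, from 122, 106 and 124 CPM before stress. Summed over its libraries that was 10 counts against 3235, a 372-fold lower share with a 95% counting interval of 202 to 776. In M22 it was 35 against 7530 counts, or 184-fold (132 to 264). The mean ratio of *SSF1* to *SSF2* CPM was 1.6 to 3.05 in unstressed strains. In ethanol it was 2.87 in S288c, 2.1 in YJM1129, 1.1 in Y10, 0.89 in M1, 0.81 in YJM308, 0.501 in the oak strain YPS163, 0.263 in YPS606 and 0.295 in M22, and in the mutant experiment 0.388 to 0.88 over the 4 YPS606 genotypes. The ratio was below 1 in every library only in M22 and YPS606 among the strains, and in skn7 and yap1 among the genotypes of the mutant experiment, within the uncertainty of how shared reads were divided.

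The remaining strains were mixed. In M1 14 genes were higher than the mean response (4.66%) and 5 lower (6.77%): *NOP7* (1.13), *MAK5* (1.06) and *DBP9* (1.05) against *DBP7* (-1.33) and *NOP13* (-1.20). *NOP13* stood at 1.78, 1.88 and 2.13 CPM in M1, while in YJM308 it stood at 14.0, 12.2 and 29.0 CPM. In YJM308 16 were higher (7.39%), led by *NOP13* (2.12), *NOP2* (1.45) and *NOP15* (1.29), and 2 lower (4.75%). In YJM1129 13 were higher (12.2%), led by *RPF1* (1.89), *SSF1* (1.81) and *NOP8* (1.2), and 1 lower (7.73%), *HAS1* (-0.94). The counts of lower genes in M1, YJM308 and YJM1129 are near or under the background of all genes. The counts of higher genes fell to 5 in M1 without replicate 1 and 8 without replicate 2, to 6 in YJM1129 without replicate 2, and to 5 in YJM308 without replicate 3. With library totals in place of TMM scaling, which moved the median of all genes by -0.437 in YJM308, 3 genes were called there and the median of the 50 genes changed from 0.283 to -0.166. Across the 7 wild strains *RRP14* (SD of the log2 responses 0.212), *RRP15* (0.261) and *RLP24* (0.271) were the steadiest, and *SSF1* (1.67), *RPF1* (1.65) and *NOP13* (1.39) varied most.

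**Figure D2:**
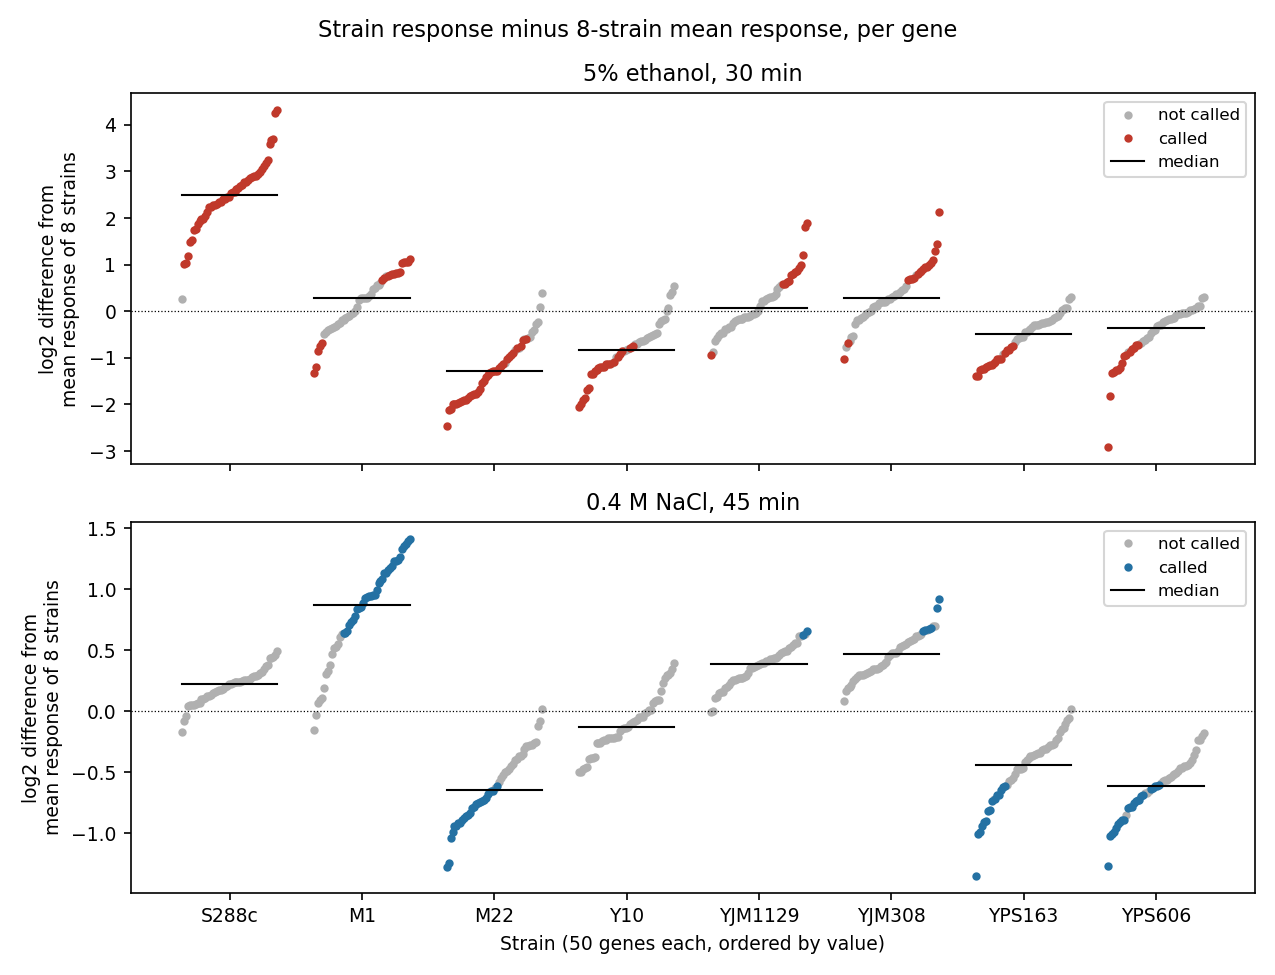
Difference between each strain's log2 response and the mean response of 8 strains, for 50 genes ordered by value within each strain, in ethanol and in salt, with called genes in colour and the median as a line. S288c in ethanol (median 2.50, 49 called) and M1 in salt (median 0.872, 35 called) stand above zero, and the M22 medians lie below it in both stresses.

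In salt it was M1 and not S288c that stood apart. In M1 24 of 50 genes were lower in salt than before it (16.2% of all genes tested), 1 was higher (13.9%), namely *TIF6* (0.92), and the median was -0.552, against -0.994 in YJM308, -1.03 in YJM1129, -1.21 in S288c, -1.53 in Y10, -1.82 in YPS163, -2.07 in M22 and -2.13 in YPS606. Against the mean salt response 35 genes were higher in M1 (12.2%), with a median log2 difference of 0.872. *ERB1* was at 464, 498 and 432 CPM in M1 in salt and at 367, 396 and 326 CPM before it. That rise was not called (log2 fold change 0.356, FDR 0.078). In salt the other strains held 92.1 to 387 CPM (median 163, n = 21). The M1 libraries did not overlap the others, and the log2 difference was 1.39. *NOG1* was likewise at 616, 533 and 479 CPM against 146 to 445 CPM (median 235, n = 21), and *ARX1* at 365, 330 and 327 CPM against 72.4 to 298 CPM (median 121, n = 21; log2 difference 1.35). *HAS1*, a helicase, was at 313, 303 and 282 CPM and had the largest difference (1.41, SE 0.13, FDR 7.6e-13), though YJM1129 with 238, 246 and 313 CPM overlapped it. *NOP7* was at 366, 372 and 382 CPM (1.37) beside 292, 304 and 377 CPM in YJM1129, and *YTM1* differed by 1.33. *NOP53* (-0.03), *NOP16* (0.07) and *RRP15* (0.09) did not pass the test in M1. Every M1 salt library was above every other salt library for 10 of 50 genes, and for 9.08% of all genes tested. With library totals in place of TMM scaling, which moved the median of all genes by -0.37, 15 genes were higher in M1.

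M22 (25 genes, 6.77% of all genes tested), YPS606 (23, 5.27%) and YPS163 (15, 7.73%) were lower than the mean in salt. *HAS1* led in M22 with 52.0, 54.1 and 51.3 CPM (-1.28), followed by *DBP7* (-1.24) and *NOG2* (-1.04). *NOP13* led in YPS606 with 19.6, 24.3 and 19.7 CPM (-1.27), where S288c had 95.3, 77.1 and 81.6 CPM. *NIP7* led in YPS163 (-1.35). These counts fell to 12 and 13 in M22 without replicates 1 and 2, to 3 in YPS606 without replicate 1 and 11 without replicate 3, and to 8 and 7 in YPS163 without replicates 2 and 3. With library totals in place of TMM scaling they were 14, 3 and 3. YJM308 was higher for 6 genes (1.71%), among them *NSA2* (0.92), *NIP7* (0.84) and *SSF1* (0.68), and for 0 without replicate 1 or 2 and 3 without replicate 3. YJM1129 was higher for 2 (3.42%), *HAS1* (0.66) and *NOP7* (0.63), a share near the background, and for 0 without replicate 2 or 3. In S288c edgeR called 0, with 7 at an unadjusted p under 0.05 and 0 by DESeq2, although 47 of 50 differences were above 0. In Y10 edgeR called 0, with 9 at an unadjusted p under 0.05 and 0 by DESeq2.

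Before stress 1 to 3 of the 50 genes were called in each of 5 strains and 0 in M1, M22 and Y10. The median log2 difference from the mean lay between -0.19 in YJM308 and 0.334 in YJM1129. These differences had mostly 1 sign within a strain, as 48 of 50 were above 0 in YJM1129, 46 in M22 (median 0.228) and 38 in Y10, and 48 were below 0 in M1 (median -0.177), 42 in YJM308, 39 in S288c, 38 in YPS606 and 33 in YPS163. With no fold limit edgeR called 17 genes in YJM1129 and 4 in M22. With the limit it called *DBP7* lower in S288c (-0.65, 5.67% of all genes tested), *SSF1* higher in YJM1129 (0.66, 4.42%), *DBP7* (0.97) and *EBP2* (0.63) higher in YJM308 (11.1%), *TIF6* higher in YPS163 (0.86, 8.37%) and in YPS606 (0.68, 5.86%), and *RRP14* (-0.78) and *EBP2* (-0.64) lower in YPS163 (7.21%). *TIF6* was at 760, 638 and 584 CPM in YPS163 and 617, 554 and 572 CPM in YPS606, at the top of its range. These counts are near or under the background. With library totals in place of TMM scaling 11 genes were lower in YPS163, 4 higher in YJM308 and 0 called in S288c, and *TIF6* in YPS606 was not called (0.43). Without replicate 1 they were 0 in S288c, YJM1129 and YPS163 (lower). Without replicate 2 they were 4 in YJM1129, 1 in YJM308 and 0 in YPS163, and without replicate 1 they were 4 in YJM308. Both YJM308 calls lie on chromosome XI, where 312 tested genes had a median log2 difference of 0.773 in YJM308, against -0.0653 for 5462 genes elsewhere. The 5 members on that chromosome lay between 0.498 and 0.972 and the other 45 between -0.469 and 0.137, so the chromosome's shift moves with these calls, and its part in them was not tested. In M1, M22 and Y10 edgeR called 0, with 16, 25 and 6 genes at an unadjusted p under 0.05 and 0 by DESeq2 in each.

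In the mutant experiment wild-type YPS606 again lowered 50 of 50 genes in ethanol (28.9% of all genes tested, median -3.91) and 49 of 50 in salt (25.9%, median -1.90). *SSF1* (-6.13), *NOP7* (-5.72), *BRX1* (-5.28), *DRS1* (-5.25) and *RPF1* (-4.98) were deepest in ethanol and *TIF6* (-1.50) least. In salt *LOC1* (-2.69), *SSF1* (-2.68) and *NOP13* (-2.68) were deepest, and *TIF6* (-0.33) was not called. The same strain in the strain experiment had an ethanol median of -4.91. Only 4 of 50 genes were deeper in the mutant experiment in ethanol. *NOP7* had 4.4 to 10.4 CPM in the ethanol libraries of the mutant experiment (n = 16). In those of the strain experiment it had 16.1 to 327 CPM (n = 23), without overlap. The difference between the 2 experiments was not tested.

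Loss of *MSN2* and *MSN4*, the general stress activators, left more of these mRNAs in ethanol. Against the wild-type response 25 of 50 genes were higher (5.18% of all genes tested), with a median log2 difference of 0.648, and their summed share was 0.13% ± 0.0217 (SD, n = 4) against 0.0755% ± 0.0101 in wild type. *ERB1* was at 43.7, 40.9, 41.0 and 31.3 CPM in msn2/4 and 20.2, 14.9, 17.0 and 24.8 CPM in wild type, with no overlap (1.07, SE 0.14, FDR 5.1e-08). *SSF1* was at 3.04, 3.58, 3.51 and 3.06 CPM against 0.462, 1.97, 1.12 and 1.85 CPM, also without overlap (1.17, SE 0.31, FDR 0.0038). *DBP3* was at 38.4, 31.4, 30.3 and 26.6 CPM against 12.9, 10.2, 16 and 18.8 CPM (1.06). *RPF1* (1.06) and *NIP7* (1.01) followed, while *NOP7* (-0.06), *TIF6* (0.17) and *NOP53* (0.19) did not pass. The count was 12 without replicate 1. In salt edgeR called 0 in msn2/4, with 11 at an unadjusted p under 0.05 and 0 by DESeq2. There 49 of 50 differences were below 0 (median -0.279). In msn2/4 salt replicate 2 the level was the lowest of the 4 libraries for 36 of 50 genes, with *LOC1* at 1.71 CPM against 13.8, 10.9 and 7.24 CPM in replicates 1, 3 and 4, and *SPB1* at 14.1 CPM against 44.5, 41.2 and 35.5 CPM. Without that library, left out after the data were seen, edgeR again called 0 genes, and the median was -0.186.

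In the skn7 strain 15 genes had a higher response than wild type in salt (4.3% of all genes tested), with a median log2 difference of 0.474. *HAS1* was at 132, 159, 132 and 125 CPM in skn7 and 88.4, 84.5, 83.9 and 78.3 CPM in wild type (0.93, SE 0.14, FDR 1.3e-06), without overlap. *NOP7* was at 132, 122, 128 and 113 CPM against 86.0, 57.9, 78.7 and 70.6 CPM (0.88), again without overlap. *YTM1* (0.85), *ARX1* (0.73) and *ERB1* (0.72) followed. This count was 5 without replicate 2 and 9 without replicate 4, 6 with library totals in place of TMM scaling and 0 at a 2-fold limit. In ethanol 4 genes were higher in skn7 (1.18%): *DBP3* (0.80), *RPF2* (0.70), *MAK5* (0.68) and *ERB1* (0.60), with a median of 0.193 over the 50 genes. Without replicate 1 or 3 or at a 2-fold limit the count was 0, and without replicate 2 it was 1. The skn7 difference in salt was not tested against that in ethanol. In the yap1 strain *NOG2* was lower in ethanol (1.25%; 10.7, 9.45, 7.68 and 8.75 CPM against 10.4, 10.3, 16.9 and 14.4 CPM, -0.60, FDR 0.0072) and *RPF1* (-0.79) and *NOP8* (-0.66) were lower in salt (3.48%). The median difference was -0.251 in ethanol and -0.312 in salt, and with library totals 0 genes were lower in ethanol and 6 in salt. The *NOG2* groups overlapped. In yap1 ethanol replicate 2 the level was the lowest of the 4 libraries for 39 of 50 genes, with *RLP24* at 7.23 CPM against 17.8 to 19.8 CPM in the others. Without that library, left out after the data were seen, *NOG2* was still called (-0.65), and no other gene was called lower. Both shares were near the background, the ethanol count was 0 without replicate 3 or 4, and the salt count was 0 without replicate 1, 3 or 4. In unstressed cells edgeR called 0 genes in each mutant, with 1, 8 and 3 at an unadjusted p under 0.05 in msn2/4, skn7 and yap1 and 0 by DESeq2.

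**Figure D3:**
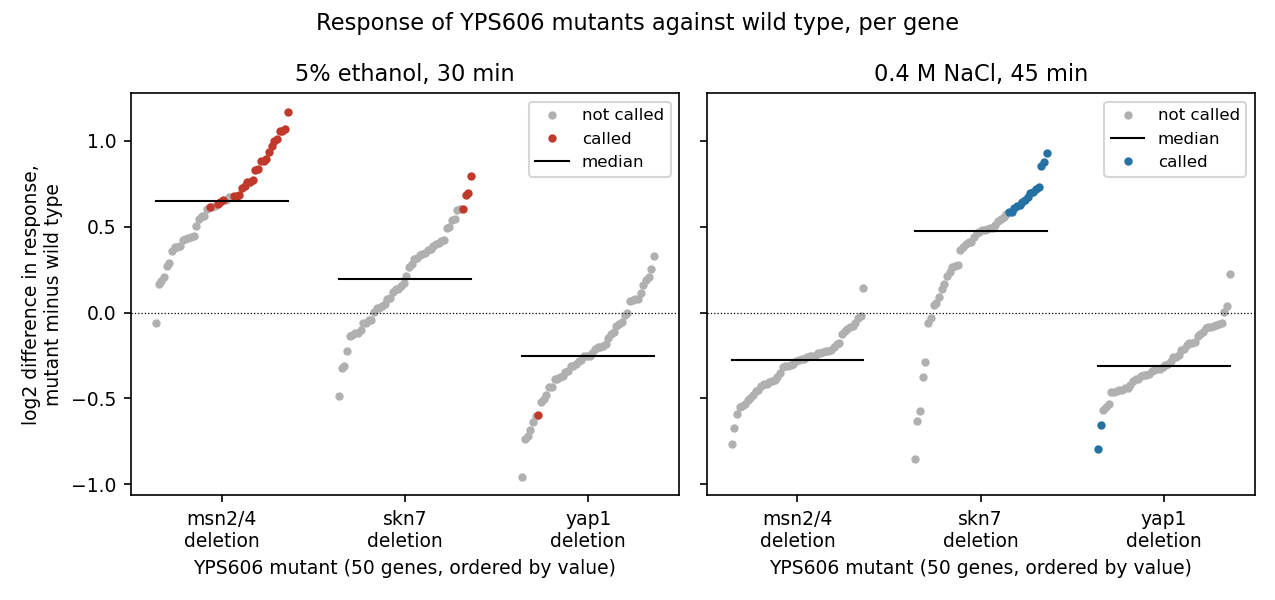
Difference in log2 response between each YPS606 deletion strain and wild type, for 50 genes ordered by value, in ethanol and in salt, with called genes in colour and the median as a line. In ethanol msn2/4 lies highest (median 0.648, 25 called), and in salt skn7 does (median 0.474, 15 called).

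The salt response of the 50 genes was also set beside the base composition of their coding sequence, a property that the choice of genes did not use. Adenine made up 28% to 44.0% of the coding strand (median 36.3%, against 32.6% over all genes). The 10 adenine-richest genes (39.0% to 44.0%), among them *RRP14*, *RRP15*, *NOP15*, *LOC1* and *NOP53*, had a salt median of -1.66, and the 10 poorest (28% to 34.0%), among them *TIF6*, *ARX1*, *YTM1*, *NOG1* and *DBP7*, one of -1.13. In ethanol the same sets were at -4.14 and -4.29. The rich set was below the poor set in salt in each of the 8 strains, by -1.56 on the log2 scale in M1, -0.905 in YPS606, -0.755 in YPS163, -0.637 in YJM308, -0.565 in S288c, -0.487 in YJM1129, -0.36 in M22 and -0.12 in Y10, and in each of the 4 genotypes of the mutant experiment, by -0.46 in wild type to -1.23 in skn7. The gap was thus wide in M1 and skn7 and small in M22 and Y10. The M1 salt difference from the mean was 0.205 for the rich and 1.04 for the poor set, and the skn7 salt difference from wild type was -0.16 and 0.567. In M1 the log2 ratio of the rich to the poor set was -0.403 to -0.0172 before stress and -1.61 to -1.29 in salt. It was -2.0 to -1.75 in skn7 in salt and -1.55 to -1.31 in wild type. In the other mutants in salt it was -1.65 to -1.16 in yap1 and -2.76 to -1.22 in msn2/4, a range that covers those of skn7 and wild type. The salt trend was not confined to the 50 genes. The rank correlation of adenine share with the mean salt change was -0.675 over the 50 genes and -0.416 over 5767 genes. In wild-type YPS606 in salt it was -0.453 over the 50 genes and -0.338 over 5547 genes. With the M1 salt difference it was -0.698 and -0.153, and with the skn7 salt difference -0.686 and -0.00905. Genes are not independent replicates, and these values are a description. The ratio also varied within groups, by up to 2.63 among the 3 YPS606 ethanol libraries (-2.25 to 0.381). Coding length was set beside it: the 10 shortest genes had a salt median of -1.73 and the 10 longest one of -1.21 (in M1 0.621 and 1.03 above the mean response), and 5 of the 10 shortest, *LOC1*, *NOP15*, *NOP16*, *RLP24* and *RRP15*, are among the adenine-richest, as are 0 of the 10 longest. The adenine-poorest set held 2 of the shortest, *NIP7* and *TIF6*, and 2 of the longest, *DBP7* and *RIX7*. By strain the shortest genes lay below the longest by -1.07 in YPS163 to -0.186 in YJM308 in 7 strains, while in M22 both sets were at -2.07, and in the mutant experiment by -0.93 in skn7 to -0.485 in yap1. The rank correlation of coding length with the mean salt change was 0.657 over the 50 genes and 0.112 over 5767 genes. In wild-type YPS606 in salt it was 0.553 over the 50 genes and 0.16 over 5547 genes. With the M1 salt difference it was 0.441 and 0.163, and with the skn7 salt difference 0.329 and 0.0288. The parts of composition and of length in the response were not tested.

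**Figure D4:**
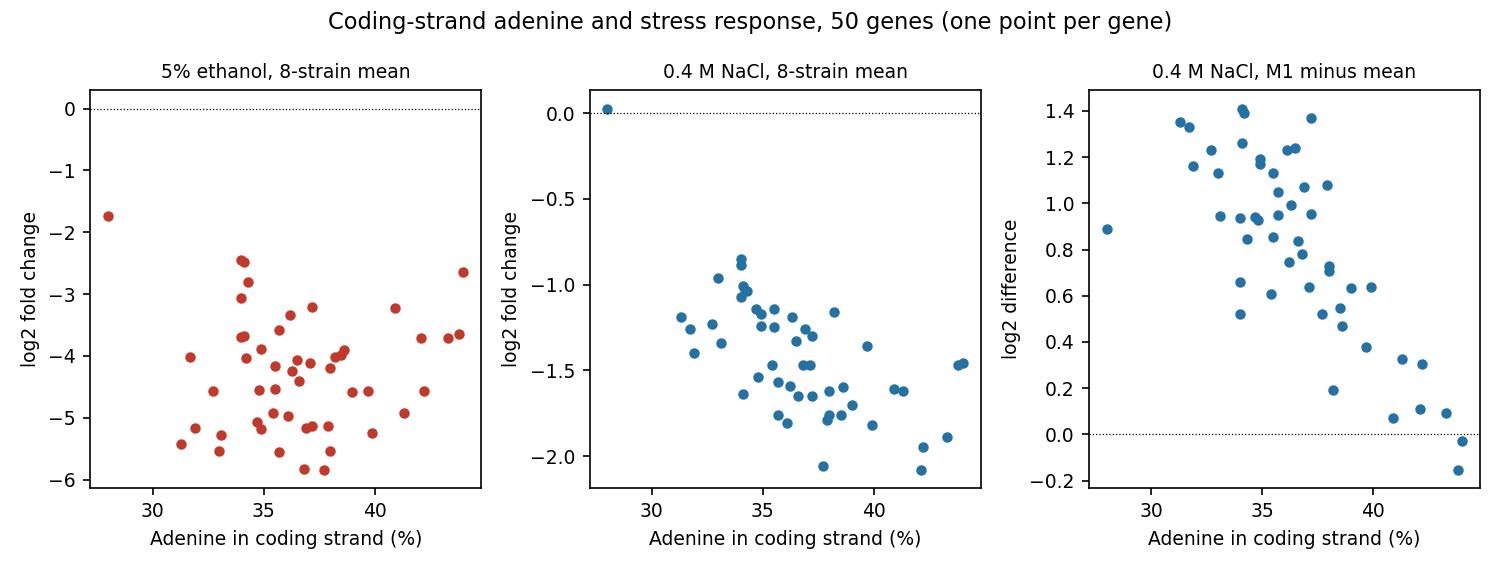
Share of adenine in the coding strand of each of 50 genes (x axis, percent) against its log2 fold change or log2 difference (y axis), with a panel for each comparison. In salt the 10 adenine-richest genes have a median of -1.66 and the 10 poorest one of -1.13, and in ethanol the same sets are at -4.14 and -4.29.

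Genes of neighbouring steps moved in the same direction. The share of all genes tested that was called the same way was 28.4% in ethanol, 20.9% in salt, 18.7% for S288c in ethanol above the mean response and 5.18% for msn2/4 in ethanol above wild type. In ethanol 36 of 37 other large subunit maturation factors were lower (median -3.18), as were 56 of 56 small subunit processome genes (-3.97), 10 of 10 RNA polymerase I genes (-4.00) and 74 of 81 large subunit ribosomal protein genes (-1.36), of which 1 was higher. In salt the counts were 35, 55, 8 and 68, with medians of -1.16, -1.20, -0.899 and -1.01. In S288c in ethanol 33, 54, 9 and 42 were above the mean response, with medians of 1.71, 2.47, 1.58 and 0.644, and in msn2/4 11, 18, 6 and 19 were above wild type (0.493, 0.566, 0.636 and 0.418). Of 8 regulators of ribosome genes, 3 rose in ethanol, namely the corepressor gene *CRF1* (2.06), the RRPE-binding repressor gene *STB3* (1.00) and the PAC-binding repressor gene *DOT6* (0.999), and 4 fell, namely the second PAC-binding repressor gene *TOD6* (-4.13), the coactivator gene *IFH1* (-3.13), the kinase gene *SCH9* (-1.76) and *FHL1* (-1.48). *SFP1* (-0.40), an activator, was not called. *IFH1* and *TOD6* were above the mean response in S288c (1.27 and 2.31), *CRF1* was below it in M1 in salt (-1.17), and the *DOT6* response in ethanol was lower in msn2/4 than in wild type (-1.31, FDR 1.5e-08). The genes outside the 50 whose pattern of responses came nearest to the median of the 50 (mean absolute log2 difference over the 16 responses of 8 strains to 2 stresses) were *ESF1* (0.187), *UTP25*, *PWP1*, *UTP11*, *RNT1*, *UTP6*, *RIO1*, *RKI1*, *TRM1* and *NMD3* (0.299). *TIF6*, at 2.01, was the farthest of the 50, with 901 other genes closer.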

How the data were processed

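The deposited values were expected counts per gene for 6685 genes, not normalized. The authors trimmed 50-base single-end reads with Trimmomatic, built strain references with Bowtie2 2.3.4.1 and GATK, and estimated counts with STAR 2.6.1 and RSEM 1.3.1 on build sacCer3 (R64). Of the values 22.9% were not whole and were rounded. Read sharing between near-identical genes was left to RSEM.

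Genes were tested if any group averaged 1 CPM or more, with edgeR 4.0.16 (R 4.3.3; quasi-likelihood, legacy method, TMM scaling, prior count 0.125), each experiment fitted whole. TMM factors were 0.514 to 1.29 in the strain and 0.729 to 1.26 in the mutant experiment. CPM values use TMM-scaled totals. The replicate number, which marks the library block and the lane, was a block, as in the study. Cultures of different genotypes share a number, so the pairing of samples from the same culture was not itself modelled. Residuals of libraries from the same culture correlated at 0.0759 and 0.0888, and of other numbers at -0.0319 and -0.0244. Replicates of a group differed by more than sampling noise (chi-square per degree of freedom 7.31 to 257.6). Intervals on counts cover counting error only.

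Genes, lists and tests were chosen with earlier results of these data known. Genes named were drawn from lists that were not given in full in each comparison. The lists held up to 5 called genes with the largest and up to 3 genes with the smallest changes (all where 5 or fewer were called). They also held 11 genes fixed by role, 8 regulators and the 10 nearest other genes. Further examples were picked after their values were seen. DESeq2 1.42.0, other scalings, filters, call limits and omitted replicates were alternatives. On simulated data for the ethanol response of S288c, 78 of 100 genes changed 2-fold and 100 of 100 changed 4-fold were called, with 4 false calls.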

Additional observations from a re-analysis of the deposited data

Results flagged for a closer look

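The level of each of the 50 genes and their summed share were screened for a library far from the other 3 of its group in the 12 groups of the mutant experiment. Of these 612 sets of 4 values, 30 were singled out at a level of 1 in 20. The genes share libraries, so the sets are not independent and this count cannot be judged against that level. The library with most was yap1 ethanol replicate 2, which was low for *DBP3* (10.6 CPM against 20.6 to 21.2 in the others), *NOP2* (12.3 against 16 to 16.7), *NOC2* (15.5 against 21.6 to 22.6), *NOC3* (7.4 against 13.9 to 15.1), *NOP16* (2.88 against 6.31 to 6.97), *NOP53* (9.45 against 19.5 to 19.8) and *RLP24* (7.23 against 17.8 to 19.8). In yap1 ethanol replicate 1 *NOP7* was high (10.4 against 5.1 to 5.77). In wild type in ethanol replicate 4 was high for *NOP4* (15.4 CPM against 10.1 to 10.6), *YTM1* (12.6 against 9.56 to 10.0) and *RPF1* (2.99 against 1.66 to 1.82). In msn2/4 in ethanol *RPF2* was high in replicate 1 (20.0 against 15.0 to 15.6), and in skn7 in ethanol *DBP6* was low in replicate 4 (22 against 28 to 28.2).

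In salt the yap1 library of replicate 1 was low for *SPB1* (32.0 CPM), *NOP12* (28) and *NIP7* (25.7), and that of replicate 3 was high for *DBP9* (39.6). The skn7 library of replicate 2 was high for *NOP15* (20.6 CPM) and *RPF2* (63.9), and the msn2/4 library of replicate 1 for *CIC1* (48.3) and *NSA2* (36.6). In wild type *NOC2* was low in replicate 4 (81.2 CPM) and *NOG2* in replicate 2 (44.1). Unstressed, wild type had *DBP7* high (116.0 CPM) and *NOP4* low (162.0) in replicate 3 and *LOC1* high in replicate 1 (81.8), msn2/4 had *RRP15* low in replicate 2 (34.1), skn7 had *NOC3* high in replicate 1 (120.0), and yap1 had *NOP4* high in replicate 2 (229.0) and *NOC3* low in replicate 4 (114.0). The msn2/4 salt library of replicate 2, low for 36 of 50 genes, was not singled out for any gene by this screen.

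Responses that differed between strains by the test of the difference itself were, in ethanol, 49 genes higher than the 8-strain mean in S288c, 14 higher and 5 lower in M1, 38 lower in M22, 24 lower in Y10, 13 higher and 1 lower in YJM1129, 16 higher and 2 lower in YJM308, 19 lower in YPS163 and 15 lower in YPS606. In salt they were 35 higher in M1, 25 lower in M22, 2 higher in YJM1129, 6 higher in YJM308, 15 lower in YPS163 and 23 lower in YPS606. Between mutant and wild type 25 genes were higher in msn2/4, 4 higher in skn7 and 1 lower in yap1 in ethanol, and 15 higher in skn7 and 2 lower in yap1 in salt.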

How the results depend on the processing

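Among 8219 values of named genes under the alternatives 0 called values changed direction, 289 lost and 48 gained a call. Of 551 counts of called genes 466 stayed within 1.5 times. The median over the 50 genes changed sign under 7 of these alternatives: with library totals in YJM308 in ethanol (0.283 to -0.166), S288c unstressed (-0.117 to 0.0172) and skn7 unstressed (-0.0407 to 0.0574), in YJM1129 in ethanol (0.0607) without replicate 2 (-0.0217) or without YPS606 ethanol replicate 3 (-0.0164), and in msn2/4 unstressed (0.0401) without replicate 1 (-0.0108) or 4 (-0.00289). The calls for the mean ethanol (50) and salt (49) responses, for ethanol against salt (50), for S288c in ethanol (49) and for wild-type YPS606 (50 and 49) were the same without any replicate number. Counts of called genes that moved by more than 1.5 times were these.

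At 2-fold and FDR 0.01 the counts in ethanol were 5 in M1, 3 in YJM1129, 6 in YJM308, 8 in YPS606, 5 in msn2/4, 0 in skn7 and 0 in yap1. In salt they were 17 in M1, 3 in M22, 0 in YJM1129, 0 in YJM308, 2 in YPS163, 3 in YPS606, 0 in skn7 and 0 in yap1. Unstressed they were 0 in S288c, YJM1129, YJM308, YPS163 and YPS606. At FDR 0.05 they were 5 in YJM1129 and 13 in YJM308 in salt. With no fold limit they were 2 in Y10 in salt and, unstressed, 5 in S288c, 4 in M22, 1 in Y10, 17 in YJM1129, 4 in YJM308 and 4 in YPS163. With library totals only they were 3 in YJM308, 7 in YPS163 and 0 in yap1 in ethanol, 15 in M1, 14 in M22, 1 in YJM1129, 1 in YJM308, 3 in YPS163, 3 in YPS606, 6 in skn7 and 6 in yap1 in salt, and 0 in S288c, 4 in YJM308, 11 in YPS163 and 0 in YPS606 unstressed. That scaling also shifted the median of all genes, by -0.437 for YJM308 and 0.236 for YPS163 in ethanol and by -0.37 for M1 in salt. Against the mean of the other 7 strains 2 genes were called in YJM1129 unstressed. Without the replicate block the salt counts were 1 in YJM1129 and 1 in yap1, and no other count moved by more than 1.5 times. DESeq2 size factors and the absence of a filter each gave 1 in yap1 in salt. The cause of these moves was not tested.

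Without a replicate number the counts in ethanol ran over 5 to 17 in M1, 34 to 36 in M22, 14 to 24 in Y10, 6 to 13 in YJM1129, 5 to 16 in YJM308, 7 to 19 in YPS163, 10 to 15 in YPS606, 12 to 24 in msn2/4, 0 to 4 in skn7 and 0 to 1 in yap1. In salt they ran over 27 to 33 in M1, 12 to 25 in M22, 0 to 2 in YJM1129, 0 to 3 in YJM308, 7 to 13 in YPS163, 3 to 17 in YPS606, 5 to 20 in skn7 and 0 to 2 in yap1. Unstressed they ran over 0 to 1 in S288c, 0 to 4 in YJM1129, 1 to 4 in YJM308 and 0 to 2 in YPS163. Leaving out YPS606 ethanol replicate 3, the library with the lowest scaling factor of the strain experiment (0.514), was chosen after the data were seen, and gave 12 genes in YPS606, 26 in Y10 and 40 in M22 in ethanol. Also after the data were seen, msn2/4 salt replicate 2 and yap1 ethanol replicate 2 were left out, which gave 0 genes in msn2/4 and 1 in yap1. Without Y10 salt replicate 1 the salt counts were 26 in M22 and 23 in YPS606. Ethanol levels near or below 1 CPM, as for *SSF1* in YPS606 and M22, rest on few counts.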
